A study of Mus musculus with 15 samples.

Results

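The 46LCNEC line was compared in 2 settings, as cells growing in culture dishes (46LCNEC_cell, dishes A, B and C) and as the tumors those cells formed under the skin of mice (46LCNEC_allo, tumors 312, 319 and 321). These 6 samples were chosen by their labels, out of 15 in the series. The line was derived from lung tumors of QKO mice that had received the Ad-CMVcre adenovirus through the trachea. QKO mice carry floxed alleles of several tumor suppressor genes, Rb1 and Trp53 among them, on an Rbl1-null background, and the CMV promoter drives Cre in a wide range of airway cells. The cells were grown as adherent monolayers in serum-containing medium with insulin, transferrin, selenium, EGF and hydrocortisone, and the dishes were sampled at the passage that was injected. For the tumors, cells were mixed with Matrigel, a basement membrane extract, and injected into the flanks of QKO mice with a working immune system, so the host cells share the floxed alleles, not recombined, and the lack of Rbl1. The age and sex of the recipients are not given in the sources used here. All dishes hold the same line, so they are repeats of culture, whereas the tumors grew separately. The other samples used for comparison were 57SCLC_cell (flasks A, B and C) and 57SCLC_allo (tumors 275, 316 and 317), a line grown in suspension from tumors induced with Ad-K5cre, and normal lung from littermates (Lung).

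A tumor that grows from injected cells holds the cells of the line and cells of the host, among them endothelial cells that line its vessels, pericytes around those vessels, fibroblasts that lay down collagen, and immune cells such as macrophages. A dish holds the line alone, on plastic, with growth factors and steroid hormone supplied by the medium. RNA from a whole tumor is a mixture, so for every gene below a difference in the number of cells of a type and a difference in RNA per cell cannot be told apart.

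RNA was selected by poly-A tail and sequenced in pairs. The values are normalized counts, that is, reads counted per gene divided by the size factor of the sample. The reads behind them ranged from 24176296 to 35434251 per dish and from 21917273 to 26502525 per tumor. In all 6 samples, every value was a whole number of reads after rescaling. Dishes differed from one another by more than counting noise (chi-square per degree of freedom between 7.28 and 22.8), and tumors by more (92.6 to 133). The ribosomal gene Rn18s-rs5 took 2.49% to 3.21% of the reads of a dish and 6.69% to 11.5% of those of a tumor. Its part in the results was not tested. Some genes that most mouse cells transcribe, such as B2m and G6pdx, are listed at 0 in all 15 samples, so a gene listed at 0 throughout was not read as silent.

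Between tumors and dishes, 16375 genes reached 10 normalized counts in 3 or more of the 6 samples and were tested with limma on log2(normalized count + 1). Calls needed an adjusted p (Benjamini-Hochberg) no higher than 0.01 together with a change of 2-fold or more. By that rule 2355 genes (14.4%) were higher in the tumors and 1383 (8.45%) were lower, 3738 (22.8%) in all, and the median log2 fold change over all genes tested was -0.000694. Without dish B the genes called lower numbered 844, and without dish C 769. Of the 2355 higher genes, 133 had 0 reads in all 3 dishes, and of the 1383 lower genes, 18 had 0 reads in all 3 tumors. Values are given below in the order of dishes A, B and C and tumors 312, 319 and 321, fold changes are tumors over dishes on the log2(normalized count + 1) scale, which understates changes of low genes, and adjusted p-values are those of limma. Coordinates are those of GRCm39. Each list of genes is described by its members called and its median, to be read beside the shares and the median of all genes given here.

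The labels name a neuroendocrine carcinoma line, so neuroendocrine and epithelial genes were read first. Ncam1, a cell adhesion molecule used as a neuroendocrine marker (chromosome 9, 49413436 to 49710357), stood at 28614, 29684 and 31510.0 normalized counts in the dishes and 3058, 7384 and 4040.0 in the tumors, and fell (log2 fold change -2.73, standard error 0.29, adjusted p = 0.000332). Uchl1, a neuronal deubiquitinase, had 699, 689 and 816 in the dishes and 34.4, 69.5 and 121 in the tumors, and fell (log2 fold change -3.45, standard error 0.41, adjusted p = 0.000529). Snap25, a protein of synaptic vesicle fusion, had 39.4, 22.1 and 20.8 in dishes and 0, 0 and 1.11 in tumors, and fell as well (adjusted p = 0.000458). In each of these 3 genes every tumor lay below every dish. Of the 18 neuroendocrine markers, 6 were tested and these 3 were called lower, with a median log2 fold change of -2.13. The granule protein genes were near 0 in both settings, with Chga at 3.75, 6.62 and 2.31 in the dishes and 18.5, 1.05 and 12.2 in the tumors and Chgb at 6.57, 4.41 and 0.769 in dishes and 3.97, 5.26 and 6.64 in tumors. Syp, the vesicle protein synaptophysin, had 15.01, 15.5 and 10.8 in the dishes and 5.30, 8.42 and 14.4 in the tumors and was not called. In the flasks of 57SCLC, read the same way, Chga had 9885, 9737 and 8951 and Syp 1074, 1033 and 949.

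Epithelial markers were low in both settings, apart from Krt19. Krt19, a keratin of simple epithelium (chromosome 11, 100031636 to 100039491), stood at 6425, 7443 and 6839 normalized counts in the dishes and 23.8, 5.26 and 11.1 in the tumors, and fell (log2 fold change -9.13, standard error 0.45, adjusted p = 1.24e-05). Epcam had 17.8, 24.3 and 20.8 in dishes and 10.6, 103 and 33.2 in tumors, Cdh1, the epithelial cadherin, 161, 172 and 161 in dishes and 74.2, 22.1 and 136 in tumors, and Krt8 1.88, 2.21 and 2.31 in dishes and 60.9, 2.11 and 1.11 in tumors. Tumor 319 was highest for Epcam and lowest for Cdh1, and tumor 312 alone had Krt8, so these genes did not move together among the tumors. In Lung, Epcam had 1549, 1992 and 1999. Of 12 epithelial markers, 6 were tested and Krt19 was the 1 called, with a median of -1.52. Without tumor 312, 2 were called lower. Vim, the intermediate filament of mesenchymal cells, had 101977, 101345 and 118251 in the dishes and 68908, 63891 and 67342 in the tumors, and was not called (log2 fold change -0.68, adjusted p = 0.0133). Of the markers given here, RNA of Ncam1 was well expressed in dishes and tumors and that of Krt19 and Uchl1 in the dishes. RNA of Chga, Chgb, Syp and Epcam was low in both. The paper reports protein staining for NCAM in LCNEC cells and for chromogranin A in LCNEC subcutaneous tumors, which RNA counts do not measure. The name 46LCNEC is kept here as the label of the line.

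Among the engineered loci, Rb1, Rbl1 and Trp53 were read in every sample. Counts are per gene over all exons, so they check deletion only in part. Rb1 had 66.6, 90.5 and 99.9 normalized counts in the dishes and 236, 183 and 289.8 in the tumors, with every tumor above every dish, and rose (log2 fold change 1.45, standard error 0.26, adjusted p = 0.0029). That call was lost without any 1 of the dishes (adjusted p between 0.0104 and 0.0136). In Lung, where the gene is intact, Rb1 had 297, 247 and 329 counts. Rbl1 had 1491, 1701 and 1664 in the dishes and 1172, 1735 and 1339 in the tumors, and Trp53 1435, 1414 and 1548 in dishes and 968, 1050.4 and 1242 in tumors, and neither was called (adjusted p = 0.291 and 0.0199). Reads of Rbl1 were thus present in every dish and tumor of a background described as null for it, and the counts do not show which exons they came from.

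Genes of the Y chromosome separated tumors from dishes completely. Ddx3y, a helicase gene (chromosome Y, 1260715 to 1286663), had 0 reads in all dishes and 381, 280.0 and 522 normalized counts in the tumors, at least 430-fold higher when the dishes are set at a floor of 3 reads over the group. Uty had 0 in the dishes and 246, 140.0 and 268 in the tumors, Kdm5d 0 and 126, 106 and 142, and Eif2s3y 0 and 162, 115 and 266. All 4 were also at 0 in every 57SCLC cell and tumor sample, and Ddx3y was at 829 in lung CT3 and 0 in the other 2 lungs. Tumor 321 was highest for each of the 4 genes and tumor 319 lowest. Xist, transcribed from the inactive X chromosome, is listed at 0 in all 15 samples. Y-linked RNA was thus not detectable in the dishes at their depth, while each tumor had it. Floors cover counting error only.

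Vessel genes were higher in the tumors. Of 17 endothelial markers, all tested, 15 rose, and the median log2 fold change was 7.48, or 7.67 with members at 0 reads in the dishes set at their bound. Tie1, an endothelial receptor kinase (chromosome 4, 118328385 to 118347261), was at 0 reads in the dishes and at 952, 572 and 925 normalized counts in the tumors, at least 890-fold higher. Cdh5, the cadherin of endothelial junctions, had 0.938, 3.31 and 0.769 in the dishes and 3735, 2143 and 3153 in the tumors (log2 fold change 10.22, standard error 0.40, adjusted p = 6.13e-06). Robo4 was at 0 and 536, 322 and 525, at least 503-fold higher, and Erg, an endothelial transcription factor, at 27.2, 25.4 and 30.0 in dishes and 1664, 1971 and 1224 in tumors. Tumor 319 was lowest of the 3 tumors for Tie1, Cdh5 and Robo4 and highest for Erg. Vwf (29.1, 35.3 and 26.9 in dishes and 238, 33.7 and 169 in tumors) and Flt1, a VEGF receptor already at 2226, 2325 and 2096 in the dishes against 3974, 4881 and 2313 in the tumors, were not called. The summed level of the list was between 2728 and 3039 in the dishes and 23730, 17356 and 21109 in the tumors.

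Around the vessels, 7 of 10 tested pericyte and smooth muscle markers (of 11) rose, with a median of 3.90. Notch3, a receptor of mural cells, had 25.3, 11.04 and 14.6 in the dishes and 2158, 2711 and 925 in the tumors (log2 fold change 6.69, standard error 0.46, adjusted p = 4.6e-05), and Rgs5 34.7, 43.0 and 35.4 in dishes and 1344, 678 and 1844 in tumors (log2 fold change 4.95, standard error 0.36, adjusted p = 5.75e-05). The potassium channel genes Kcnj8 (0.938, 0 and 4.61 in dishes and 242, 203 and 407 in tumors) and Abcc9 (0, 0 and 3.08 in dishes and 547, 379 and 479 in tumors) rose as well. All 4 were higher in every tumor than in any dish. Cnn1, a calponin of smooth muscle, went the other way at 89.1, 94.9 and 106 in the dishes and 52.98, 25.3 and 29.9 in the tumors (log2 fold change -1.47, standard error 0.33, adjusted p = 0.00779). The call on Cnn1 was lost without any 1 of the dishes and without tumor 319 or 321, and without any 1 of the dishes 5 members were called higher.

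The marker list of fibroblasts rose in 12 of 14 members, with a median of 3.81. Lum, a collagen-binding proteoglycan, had 0, 2.21 and 0 in the dishes and 1899, 3387 and 8259 in the tumors (adjusted p = 2.22e-05). Dcn, decorin, had 8.44, 11.04 and 13.8 in dishes and 4101, 10947 and 13493 in tumors (log2 fold change 9.47, standard error 0.44, adjusted p = 9.69e-06), and Pdgfra, the receptor of fibroblasts for PDGF, 1270.4, 1165 and 1136 in dishes and 12346, 10868 and 16369 in tumors (log2 fold change 3.45, standard error 0.16, adjusted p = 9.26e-06). Lum and Dcn were highest in tumor 321 and lowest in tumor 312. Some members were expressed in the dishes too, with Col1a1 at 20720.0, 19769 and 22399 in the dishes and 330665, 216112 and 122566 in the tumors, and the summed level of the list was 90541 to 101972 in the dishes and 975038, 949453 and 487945 in the tumors. Thy1 (293, 361 and 337 in dishes and 634, 56.8 and 779 in tumors) and Fbln1 (1316, 1515 and 1595 in dishes and 1511, 1551 and 1018 in tumors) were not called.

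The largest increases of all genes with at least 50 normalized counts in every tumor were those of macrophages. C1qc, a chain of complement C1q (chromosome 4, 136616466 to 136620376), had 0 reads in the dishes and 10277, 7671 and 16619 normalized counts in the tumors, at least 12600-fold higher, and C1qb had 0 and 9528, 6398 and 15522, at least 11400-fold higher. Lyz2, lysozyme, had 1.88, 1.10 and 1.54 in dishes and 19383, 13992 and 34162 in tumors (log2 fold change 13.04, standard error 0.33, adjusted p = 2.46e-06). Csf1r, the receptor through which macrophages receive the growth factor CSF1, had 21.6, 30.9 and 51.5 in the dishes and 6801, 4867 and 7817 in the tumors. All 14 tested macrophage and monocyte markers (of 15) rose, with a median of 9.75 (9.83 at the bounds), and their sum was 229 to 255 in the dishes and 76830, 55091 and 122704 in the tumors. C1q, Lyz2 and Tyrobp (0 in each in dishes and 775, 584 and 1271 in tumors) were highest in tumor 321 and lowest in 319, whereas the scavenger receptors Mrc1 (2.81, 2.21 and 1.54 in dishes and 3968, 3352 and 1905 in tumors) and Cd163 (0 in each in dishes and 813, 674 and 302 in tumors) were lowest in 321.

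Among the 12 largest increases were also the leukocyte genes Nrros, Il10ra, Fcrls, Tifab and Laptm5, and H2-Ab1, described with MHC class II. Nrros, a microglia and macrophage protein that holds latent TGF-beta, was at 0 reads in the dishes and 2036, 1390.4 and 2062 in the tumors, at least 2000-fold higher. Il10ra, the IL-10 receptor, was at 0 and 1340.4, 919 and 2675, at least 1790-fold higher, and Tifab at 0 and 1445, 947 and 1971, at least 1590-fold higher. Laptm5, a lysosomal protein of blood cells, had 1.88, 4.41 and 0.769 in dishes and 4306, 3168 and 5334 in tumors (log2 fold change 10.43, standard error 0.42, adjusted p = 6.37e-06). Fcrls, a scavenger receptor of macrophages, had 2.81, 0 and 0 in dishes and 4532, 3604 and 707 in tumors, with tumor 321 well below the others, as for Mrc1 and Cd163. The list also held Heyl, a Notch target of mural cells, with 2.81, 0 and 0.769 in the dishes and 4581, 2261 and 1258 in the tumors (log2 fold change 10.28, standard error 0.61, adjusted p = 2.58e-05).

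Genes of antigen presentation by MHC class II rose and differed strongly between tumors. Cd74, the invariant chain, had 83.5, 114 and 99.9 in the dishes and 2697, 1093 and 52617 in the tumors, H2-Ab1 0.938, 0 and 0.769 in dishes and 1105, 559.9 and 16687 in tumors, H2-Aa 0.938, 0 and 0.769 in dishes and 743, 407 and 12649 in tumors, and Ciita, their transcriptional activator, 5.63, 1.10 and 1.54 in dishes and 45.0, 25.3 and 480.1 in tumors. Every tumor was above every dish for Cd74, H2-Ab1 and H2-Aa, and tumor 321 was far above the other tumors in all 4. Of 10 members, 8 rose with a median of 4.07, and 4 did so without any 1 of the dishes or without tumor 312. Neutrophil genes rose in 4 of 5 tested members (of 8, median 6.56), led by S100a9 at 0 reads in the dishes and 144, 182 and 733 in the tumors, highest in tumor 321.

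Lymphocyte genes were low in tumors 312 and 319, though above the dishes in sum, and far higher in tumor 321. The T cell and NK cell markers summed to 31.5 to 36.6 normalized counts in the dishes and 174, 104 and 2466 in the tumors. Cd8a was at 0 reads in the dishes and 13.2, 2.11 and 403 in the tumors, and Cd4, also made by some macrophages, at 2.81, 6.62 and 5.38 in dishes and 75.5, 57.9 and 466 in tumors. With values this unequal, 14 of 16 members failed the filter on low values and Cd4 was the 1 called (log2 fold change 4.49, standard error 0.78, adjusted p = 0.0027), a call lost without any 1 of the dishes, while 2 were called without tumor 319. The B cell and plasma cell list summed to 12.2 to 27.6 in the dishes and 126, 173 and 4504 in the tumors, with Jchain, which joins immunoglobulin chains, at 59.6, 7.37 and 4084 in the tumors. Of its 2 tested members (of 7) Cd79b was called (0, 2.21 and 1.54 in dishes and 37.1, 20.0 and 157 in tumors), not so without dish A or C, and 2 were called without tumor 312 or 319.

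Red cell genes were detected in the tumors alone or nearly so, with Hbb-bs, a beta globin, at 0.938, 0 and 0 in the dishes and 393, 724 and 306 in the tumors, and 3 of 3 tested members (of 6) called higher. Globin copies are alike in sequence, so their counts are uncertain. Some adipocyte and skeletal muscle genes were seen mostly in a single tumor, while those called were above every dish in every tumor. Adipoq, adiponectin, had 1.88, 0 and 2.31 in the dishes and 103, 0 and 0 in the tumors, and the myosin gene Myh1 0 in each in dishes and 3.97, 43.2 and 2.21 in tumors. The adipocyte member called was Fabp4 (46.9, 67.3 and 77.6 in dishes and 2176, 366 and 441 in tumors, of 2 tested of 9, lost without any 1 of the dishes) and the muscle member Tnni2 (1.88, 1.10 and 0 in dishes and 52.98, 35.8 and 29.9 in tumors, of 6 tested of 12). Of mast cells, the 1 tested member, Kit, rose (46.9, 58.5 and 44.6 in dishes and 321, 153 and 383 in tumors), while the mast cell proteases Cpa3 (7.95, 0 and 1.11 in the tumors) and Tpsb2 (11.9, 1.05 and 2.21) stayed near 0. Of 5 tested Schwann cell genes (of 6) Mbp was called and it fell (2879, 2546 and 2697 in dishes and 813, 408 and 741 in tumors). Of 5 tested lung epithelial genes (of 11) Hopx was called (28.1, 28.7 and 25.4 in dishes and 1085, 558 and 2384 in tumors), with the surfactant gene Sftpc at 8.44, 5.52 and 9.23 in dishes and 7.95, 2.11 and 5.53 in tumors. The 1 tested epidermal gene of 9, Krt10, was not called (265, 262 and 246 in dishes and 315, 320.0 and 326 in tumors, adjusted p = 0.0869).

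**Figure D1:**
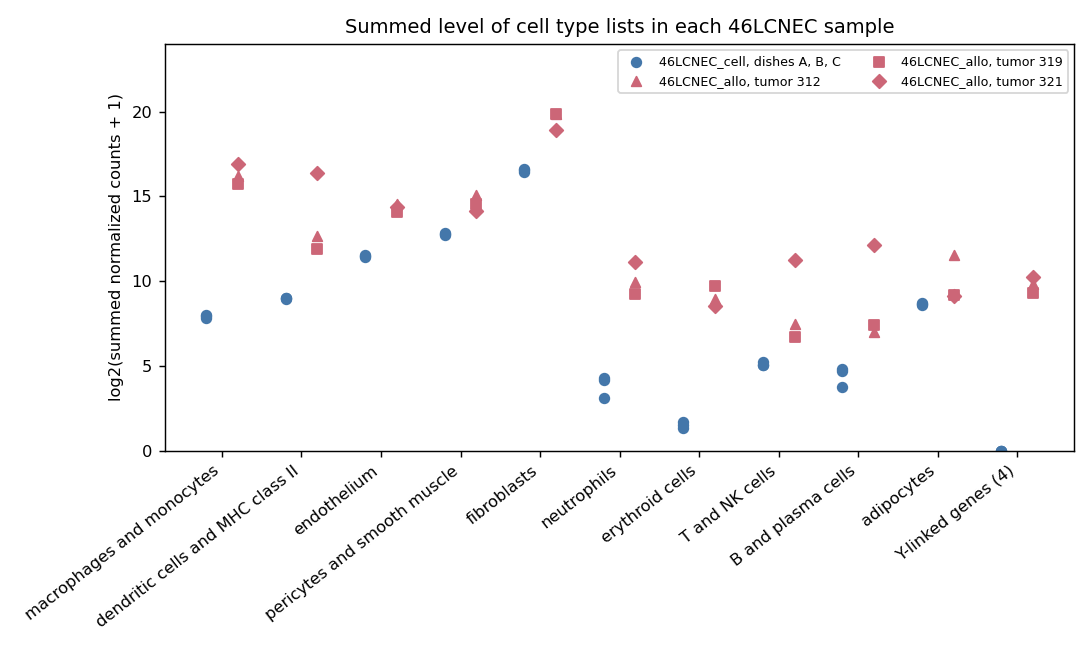
Summed normalized counts of each cell type list, as log2(sum + 1), with 1 point per sample; circles are dishes and the other shapes are the tumors. The macrophage list lies at 229 to 255 normalized counts in the dishes and at 55091 or more in the tumors, and the lists of MHC class II, T and B cells are highest in tumor 321.

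Among the genes with the largest decreases, several encode surface proteins and developmental regulators that the dishes expressed strongly. Cyp1b1, a cytochrome P450 that metabolizes aromatic hydrocarbons and steroids (chromosome 17, 80008966 to 80022532), stood at 55469, 51318 and 51702 normalized counts in the dishes and 358, 16.8 and 369 in the tumors (log2 fold change -8.63, standard error 1.08, adjusted p = 0.000645). Cdh6, a cadherin of developing kidney and nerve (chromosome 15, 13028787 to 13174004), had 2684, 3353 and 3640.3 in dishes and 0, 0 and 9.96 in tumors (log2 fold change -10.49, standard error 0.88, adjusted p = 0.000115). Sp7, the osterix factor of bone-forming cells, had 1142, 1021 and 1034 in dishes and 9.27, 5.26 and 1.11 in tumors (log2 fold change -7.70, standard error 0.54, adjusted p = 5.36e-05). For each of these genes every tumor lay far below every dish. Npy4r, a receptor for pancreatic polypeptide, had 716, 723 and 686 in the dishes and 2.65, 0 and 2.21 in the tumors, the fructose transporter gene Slc2a5 405, 376 and 466 in dishes and 1.32, 0 and 3.32 in tumors, Igsf11, an adhesion protein, 585, 531 and 582 in dishes and 3.97, 0 and 0 in tumors, Trim54, a ubiquitin ligase of muscle, 674, 750.5 and 719.6 in dishes and 14.6, 1.05 and 1.11 in tumors, and Arhgap36 437, 471 and 539 in dishes and 0, 0 and 1.11 in tumors. The remaining genes of the 12 were Krt19, given above, and 3 predicted genes without an established symbol.

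Among the lists of cell programs, cholesterol synthesis and uptake had the largest share of members called. Cells make cholesterol from acetyl-CoA through mevalonate, and the transcription factor SREBP2 switches on its enzymes when sterol in the membranes is low. Of the 24 list members, 23 were tested and 22 (against 8.45% of all genes) were called lower in the tumors, with a median log2 fold change of -1.58. The same 22 of 23 count was found with edgeR, with DESeq2 and with either other scaling of the libraries, the range without any 1 sample was 17 to 22, and 7 fell by a test against 2-fold. The summed level was 107632 to 119198 normalized counts in the dishes and 33015, 45671 and 33037 in the tumors.

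Hmgcs1, an early enzyme of the pathway, had 7076, 8322 and 8321 normalized counts in the dishes and 2046, 2719.7 and 1896 in the tumors (log2 fold change -1.85, standard error 0.15, adjusted p = 0.000112), without overlap. Other members, chosen after their values were seen so as to follow the pathway from start to end, moved alike. Idi1, which converts the isoprene units into each other, had 218, 264 and 304 in dishes and 31.8, 78.9 and 48.7 in tumors, Fdps, which joins them, 642, 694 and 671 in dishes and 62.3, 144 and 77.4 in tumors, and Msmo1, a sterol demethylase, 3930.3, 5204 and 5140.2 in dishes and 729.8, 1155 and 1012 in tumors. Their log2 fold changes were -2.36, -2.90 and -2.31. Insig1, which holds SREBP in the endoplasmic reticulum and is itself a SREBP target, had 5565, 6831 and 6949.9 in dishes and 1262, 2163 and 1204 in tumors (log2 fold change -2.11), and Srebf2, the gene of SREBP2, 18556, 18504 and 17999.9 in dishes and 7544, 11172 and 7601 in tumors (-1.09). Tumor 319 was the highest of the tumors for Idi1, Fdps, Msmo1, Insig1 and Srebf2. The tested member that was not called, Ebp, had 1526, 2004 and 2169 in the dishes and 1261, 909 and 1044 in the tumors (log2 fold change -0.82), and Mvd is listed at 0 in all samples.

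Promoter sequences, 250 bases before to 50 after the gene start, are given for 3 of the members that fell, since the factor named above acts at promoters of this pathway. They are those of Hmgcs1, at chr13:119690101-119690400 on the plus strand, Idi1, at chr13:8885356-8885655 on the plus strand, and Msmo1, at chr8:64733529-64733828 on the minus strand, all from RefSeq on GRCm38.p6, an older build than that of the counts. Each is printed 5′ to 3′ in its gene's direction. Capitals mark the letters TCACNCCAC, a form of the sterol regulatory element, which were searched on both strands.
Hmgcs1: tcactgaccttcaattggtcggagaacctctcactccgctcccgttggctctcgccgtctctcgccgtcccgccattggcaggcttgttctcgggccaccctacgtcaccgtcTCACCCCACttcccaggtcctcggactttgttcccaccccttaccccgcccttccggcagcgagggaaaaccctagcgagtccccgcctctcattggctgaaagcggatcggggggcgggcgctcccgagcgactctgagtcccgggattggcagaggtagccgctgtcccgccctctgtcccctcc
Idi1: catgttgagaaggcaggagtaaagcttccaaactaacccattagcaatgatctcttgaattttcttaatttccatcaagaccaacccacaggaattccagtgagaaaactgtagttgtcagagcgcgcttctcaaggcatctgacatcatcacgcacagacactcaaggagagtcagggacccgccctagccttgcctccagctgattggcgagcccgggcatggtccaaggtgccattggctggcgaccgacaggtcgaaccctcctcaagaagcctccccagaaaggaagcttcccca
Msmo1: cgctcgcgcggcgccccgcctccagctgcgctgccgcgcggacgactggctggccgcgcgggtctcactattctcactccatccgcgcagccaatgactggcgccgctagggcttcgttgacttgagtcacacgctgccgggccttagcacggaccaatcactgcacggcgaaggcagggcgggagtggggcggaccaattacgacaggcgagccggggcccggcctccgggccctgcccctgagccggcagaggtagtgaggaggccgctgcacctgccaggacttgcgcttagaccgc
The motif was found in Hmgcs1, starting 137 bases before the gene start, and in none of the promoters of the other 15 list members that the table holds. It is in 388 of 27025 genes with a promoter in the table (1.44%) and in 1 of 16 list members (6.25%). These are matches of letters, chosen after the counts of the list were known.

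Glucocorticoid-responsive genes also fell in part. The glucocorticoid receptor, which binds hydrocortisone, switches these genes on in many tissues, and the dishes had hydrocortisone in the medium. Whether the hydrocortisone had a part in these falls was not tested. Of 12 members, all tested, 7 were called lower, with a median of -1.44, and 4 by the test against 2-fold. Sgk1, a serum and glucocorticoid kinase (chromosome 10, 21758083 to 21875802), stood at 13688, 13476 and 14898 normalized counts in the dishes and 2585, 2079.8 and 2301 in the tumors (log2 fold change -2.60, standard error 0.11, adjusted p = 7.39e-06). Fkbp5, a chaperone of the receptor, had 14452, 13899.5 and 12652 in dishes and 4613, 3901 and 3986 in tumors (log2 fold change -1.72, standard error 0.11, adjusted p = 3.59e-05), and Zbtb16, a zinc finger factor, 2074, 1989.9 and 1677 in dishes and 47.7, 23.2 and 67.5 in tumors (log2 fold change -5.46, standard error 0.36, adjusted p = 4.03e-05). The spread within each setting was small beside these gaps. Pdk4, a kinase that restrains pyruvate use, had 10977, 7976 and 8278 in dishes and 453, 664 and 779 in tumors (log2 fold change -3.86, standard error 0.22, adjusted p = 2.1e-05), and Per1, Klf9 and Tsc22d3, chosen after their values were seen, fell with log2 fold changes of -1.83, -1.54 and -1.34. The metallothionein genes Mt1 (2024, 3172 and 2939.9 in dishes and 1771, 1950.3 and 1616 in tumors) and Mt2 (216, 373 and 352 in dishes and 244, 384 and 260.0 in tumors), the phosphatase gene Dusp1 (2102, 1479 and 1531 in dishes and 1387, 2305 and 1429 in tumors), Errfi1 and Cebpd were not called. Without tumor 312, 1 member was called higher beside the 7 lower.

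**Figure D2:**
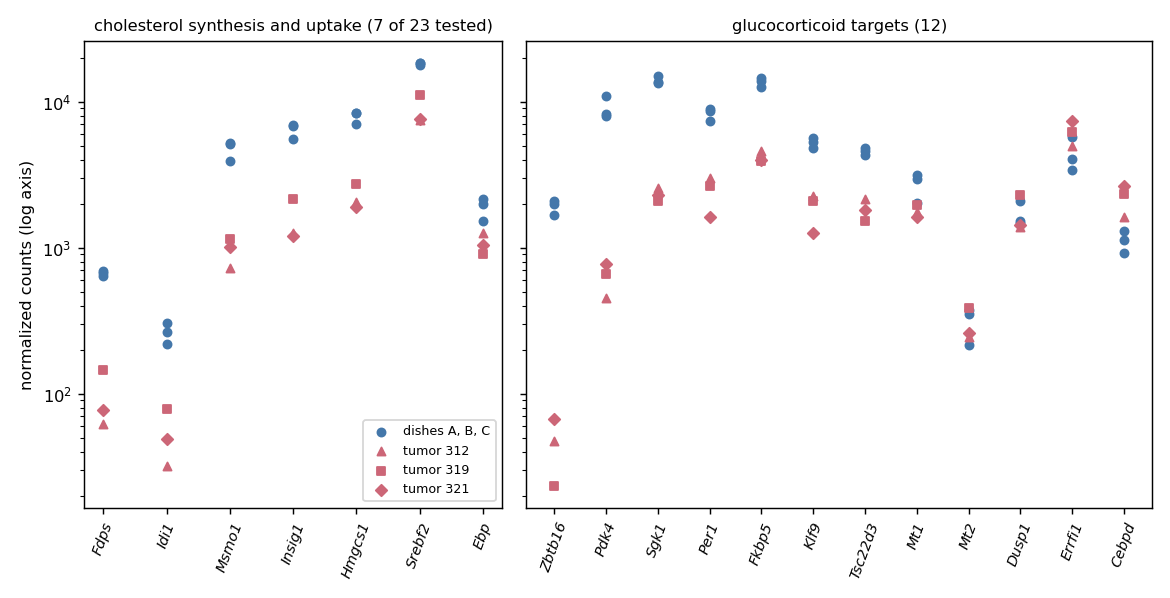
Normalized counts (log axis) of the 7 tested cholesterol genes named in the text and of the 12 glucocorticoid genes, 1 point per sample, circles for dishes and other shapes for tumors. Every cholesterol gene shown except Ebp and 7 of the 12 glucocorticoid genes were called lower in the tumors, and Zbtb16 went from 1677 or more in the dishes to 67.5 or less in the tumors.

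Proliferation genes lay lower in the tumors, without reaching 2-fold in most members. Of 21 proliferation genes, all tested, 7 were called lower with a median of -0.77, 15 fell at an unadjusted p under 0.05, and by the limma test against 2-fold the count was 0, with 6 by edgeR and 6 by DESeq2 at the usual thresholds. Cdk1, the kinase that starts mitosis, had 4498, 5289.8 and 5611 in the dishes and 2159, 1729 and 1809.8 in the tumors (log2 fold change -1.43, standard error 0.13, adjusted p = 0.00016), its partner cyclin gene Ccnb1 1779, 1778 and 1973 in dishes and 739, 757 and 642 in tumors, and Mcm7, of the helicase that opens replication origins, 2745, 3337 and 3416 in dishes and 1548, 1566 and 1385 in tumors. Mki67, the marker of cycling cells, had 16362, 15244 and 16349 in dishes and 10411, 15054 and 7747 in tumors and was not called (adjusted p = 0.0651), with tumor 319 just below the dishes.

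Transcripts of the mitochondrial genome fell in 6 of 10 tested members (of 13), with a median of -1.06. All 4 with the smallest adjusted p encode subunits of complex I, and mt-Nd1 had 178935, 216740.0 and 242279 normalized counts in the dishes and 54928, 47150.3 and 84591 in the tumors (log2 fold change -1.81, standard error 0.28, adjusted p = 0.00155), mt-Nd2 87723, 113751 and 122779 in dishes and 28475, 23758 and 40906 in tumors. Dish A was the lowest of the dishes and tumor 321 the highest of the tumors for both, without overlap. The count was 3 without dish B and 2 without dish C, and 0 by the limma test against 2-fold, where 9 of the 10 had an unadjusted p under 0.05 and a fall in the main test. With edgeR and with DESeq2 it was 6. The share of reads on Rn18s-rs5 also moved with setting, and its part in this result was not tested.

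Targets of YAP and serum response factor, which respond to stiff surfaces and serum, fell in 5 of 16 tested members (of 17), with a median of -0.76. Ccn1, a secreted matrix protein (chromosome 3, 145352720 to 145355738), had 44372, 32544 and 37651 in the dishes and 5083, 5730.0 and 3089.8 in the tumors (log2 fold change -3.08, standard error 0.24, adjusted p = 8.68e-05), and Ccn2, its relative CTGF, 12906, 13661 and 16801 in dishes and 3389, 2102 and 1049 in tumors (log2 fold change -2.88, standard error 0.38, adjusted p = 0.000852). Amotl2, which restrains YAP, had 16335, 15080.4 and 17609 in dishes and 5117, 5011 and 5159.6 in tumors (log2 fold change -1.68, standard error 0.10, adjusted p = 2.58e-05), and Vcl, vinculin of focal adhesions, 5579.7, 4634 and 4667 in dishes and 2143, 2127 and 2675 in tumors (log2 fold change -1.10, standard error 0.13, adjusted p = 0.000523). The tumors were below all dishes in each. Ankrd1, the cardiac ankyrin protein, had 1574, 1259 and 1502 in dishes and 748, 73.7 and 512 in tumors and was not called, with tumor 319 far below the other tumors.

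Targets of EGF and MAPK signaling divided. Of 15 members, all tested, 4 fell and 2 rose, with a median of -0.67, and without dish B or without dish C 3 fell and 1 rose. Ereg, an EGF family ligand (chromosome 5, 91222157 to 91241505), had 3859.9, 4343 and 4216 in the dishes and 956, 1141 and 818 in the tumors (log2 fold change -2.10, standard error 0.14, adjusted p = 3.92e-05), Dusp4, a MAPK phosphatase, 5036, 4159 and 4039 in dishes and 833, 1410.4 and 1344 in tumors (log2 fold change -1.91, standard error 0.21, adjusted p = 0.000368), and Etv4, an ETS factor, 3795, 4305 and 4013 in dishes and 1158, 1776 and 1663 in tumors (log2 fold change -1.42, standard error 0.17, adjusted p = 0.000511). Areg, another EGF family ligand, was the other member that fell (131, 153 and 144 in dishes and 30.5, 47.4 and 49.8 in tumors). The Sprouty genes, inhibitors of receptor kinase signaling, went the opposite way, Spry1 from 783, 898 and 689.6 to 2548, 2651 and 2975 (log2 fold change 1.79, standard error 0.13, adjusted p = 5.76e-05) and Spry4 from 392, 323 and 295 to 754, 1424 and 928 (log2 fold change 1.57, standard error 0.24, adjusted p = 0.00164, lost without dish B or C). Among the members not called were Dusp6 (2964, 2800.0 and 2777 in dishes and 2808, 3674 and 3542 in tumors) and Etv5 (1291, 1345 and 1176 in dishes and 807, 1209 and 950.3 in tumors).

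Counting both directions, stress genes were called about as often as all genes (22.8%). Most of these calls were falls, while 8.45% of all genes fell. Of 18 tested targets of ATF4 (of 19), the factor of amino acid shortage, 3 fell, namely Phgdh of serine synthesis (3434, 3681 and 3780.2 in dishes and 1078, 1219.9 and 1277 in tumors, log2 fold change -1.61, standard error 0.10, adjusted p = 3.56e-05), Asns, asparagine synthetase (2260.2, 2600.2 and 2542 in dishes and 1293, 739.9 and 824 in tumors, log2 fold change -1.41), and the cystine transporter gene Slc7a11 (2788, 2689 and 2839 in dishes and 1293, 922 and 976 in tumors, log2 fold change -1.40), while 5 fell without tumor 312. The median log2 fold change of the ATF4 list was -0.63. Of 14 tested targets of NRF2 (of 15), the antioxidant factor, 3 fell and 1 rose, with a median of -0.047. Gclc, the catalytic subunit for glutathione synthesis, had 5247, 6740.1 and 6926 in the dishes and 1493, 1059 and 773 in the tumors (log2 fold change -2.55, standard error 0.24, adjusted p = 0.000182). Its partner Gclm (808, 965 and 1007 in dishes and 423, 583 and 319.7 in tumors) and the exporter gene Abcc1 (7235, 7772 and 8273 in dishes and 5343, 3645 and 2731 in tumors) fell with calls that were lost without any 1 of the dishes, and without any 1 of them or without tumor 321 the list had 1 member lower. Gsta4, a glutathione transferase, rose (87.3, 87.2 and 91.5 in dishes and 437, 244 and 457 in tumors, log2 fold change 2.03, standard error 0.27, adjusted p = 0.000796). Nqo1 stood at 11.26, 14.3 and 13.1 in the dishes and at 1050.3, 13.7 and 19.9 in the tumors, so tumor 312 alone was high.

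Of 10 tested p53 targets (of 11), limma, edgeR and DESeq2 each called 0, with 1 higher and 3 lower at an unadjusted p under 0.05 by limma. Without tumor 312, 1 was called lower, and without tumor 319, 1 higher. The target Cdkn1a, p21, had 1238, 1154 and 956 in the dishes and 936, 3753 and 848 in the tumors, with tumor 319 highest. Of 17 immediate early genes, all tested, which are switched on within minutes of a stimulus, 5 rose and 1 fell, with a median of 0.60. Klf2, a factor also of endothelial cells, had 60.0, 55.2 and 65.3 in dishes and 656, 575 and 1231 in tumors (log2 fold change 3.67, standard error 0.30, adjusted p = 9.47e-05), and Jun 3381, 2024 and 1949.7 in dishes and 5324, 10744 and 6407 in tumors (log2 fold change 1.59, standard error 0.31, adjusted p = 0.00417), while Junb fell from 16427, 12980.2 and 13533 to 5803, 7437 and 6639.7 (log2 fold change -1.11, standard error 0.14, adjusted p = 0.000681). Dish A was the highest dish for Jun and Junb. Without dish B or without dish C, 1 member rose, and the call on Jun was lost.

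Some oxygen-responsive genes rose, several of them most in tumor 319. Of 20 tested hypoxia genes (of 21), 5 rose (against 14.4% of all genes), with a median of 0.80. Angptl4, an inhibitor of lipoprotein lipase (chromosome 17, 33992724 to 34000804), had 84.4, 113 and 131 in the dishes and 3000.0, 1890.3 and 1579 in the tumors (log2 fold change 4.26, standard error 0.27, adjusted p = 3.33e-05). Car9, a carbonic anhydrase of the cell surface, had 41.3, 43.0 and 34.6 in dishes and 659.6, 3033 and 423 in tumors (log2 fold change 4.55, standard error 0.66, adjusted p = 0.00124), and Ndrg1 149, 168 and 161 in dishes and 1118, 5873 and 834 in tumors (log2 fold change 3.46, standard error 0.66, adjusted p = 0.00409, lost without any 1 of the dishes). Tumor 319 was several times above the other tumors for Car9 and Ndrg1, and for Egln3, an oxygen sensor (1181, 920.5 and 840.3 in dishes and 4723, 23170.5 and 3859.7 in tumors), but not for Angptl4. Vegfa, the main vessel growth factor, had 13489, 11622 and 11529 in dishes and 12719, 31626 and 8976 in tumors and was not called. The summed list was 33843 to 40389 in the dishes and 52936, 118123 and 37911 in the tumors. The count of 5 was 9 with DESeq2, 3 without any 1 of the dishes and 9 without tumor 321.

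Glycolysis genes mostly lay lower in the tumors. Of 14 genes, all tested, 1 was called and it rose, Gpi1 (3598, 3427 and 3741 in dishes and 6711, 13672 and 6401 in tumors, log2 fold change 1.223, standard error 0.28, adjusted p = 0.00855), and the median was -0.61. That call was lost with the other scalings, without any 1 of the dishes and without tumor 312 or 319, and without tumor 319 3 members were called lower. Ldha, lactate dehydrogenase, had 19778, 20619.7 and 22699 in the dishes and 11411, 13610.3 and 9602 in the tumors and did not reach 2-fold (log2 fold change -0.88, adjusted p = 0.0026). Gapdh, Eno1 and Pgam1 have many near-identical copies and their counts are uncertain.

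Interferon-stimulated genes were raised, most of all in tumor 321. Of 21 tested members (of 22), 9 were called higher, with a median of 2.99. Oasl2, an antiviral protein (chromosome 5, 115034997 to 115050295), had 15.01, 21.0 and 20.8 in the dishes and 1201, 1559.8 and 3625 in the tumors (log2 fold change 6.59, standard error 0.40, adjusted p = 2.88e-05), Zbp1, a sensor of nucleic acid, 11.26, 11.04 and 6.92 in dishes and 486, 267 and 2101 in tumors (log2 fold change 5.95, standard error 0.70, adjusted p = 0.000491), and Cxcl9, a chemokine that attracts T cells, 0 reads in the dishes and 43.7, 27.4 and 2118 in the tumors (adjusted p = 0.00627). Ifi44 (8.44, 16.6 and 6.15 in dishes and 125, 89.5 and 448 in tumors) and Oas1a (4.69, 8.83 and 1.54 in dishes and 92.7, 62.1 and 428 in tumors) were called too. The calls on Cxcl9, Ifi44 and Oas1a were lost without dish A or C, where Oasl2 and Zbp1 were the 2 members left. In each gene named here tumor 321 was highest, and each tumor was above every dish. The list summed to 4150 to 4202 in the dishes and 9158, 8075 and 37131 in the tumors. The count of 9 became 15 with DESeq2, 14 without tumor 321, 5 without dish B, and 2 without dish A or without dish C.

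The machinery that loads peptides onto MHC class I rose in 7 of 11 tested members (of 14), with a median of 1.70, and in 4 without dish B. Tap1, the peptide transporter (chromosome 17, 34405996 to 34416199), had 159, 175 and 144 in the dishes and 969.5, 1759 and 3568 in the tumors (log2 fold change 3.52, standard error 0.42, adjusted p = 0.000535), and the immunoproteasome subunits Psmb8 33.8, 30.9 and 12.3 in dishes and 682, 863 and 1829 in tumors (log2 fold change 5.39, standard error 0.49, adjusted p = 0.000157) and Psmb9 13.1, 15.5 and 16.9 in dishes and 478, 795 and 1784 in tumors (log2 fold change 5.77, standard error 0.45, adjusted p = 8.53e-05). The tumors ranked 321, 319, 312 in all 3. The heavy chain H2-D1 followed the same order at 4015, 4258 and 4346 in the dishes and 7450.3, 18158 and 41904 in the tumors and was not called (adjusted p = 0.015).

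**Figure D3:**
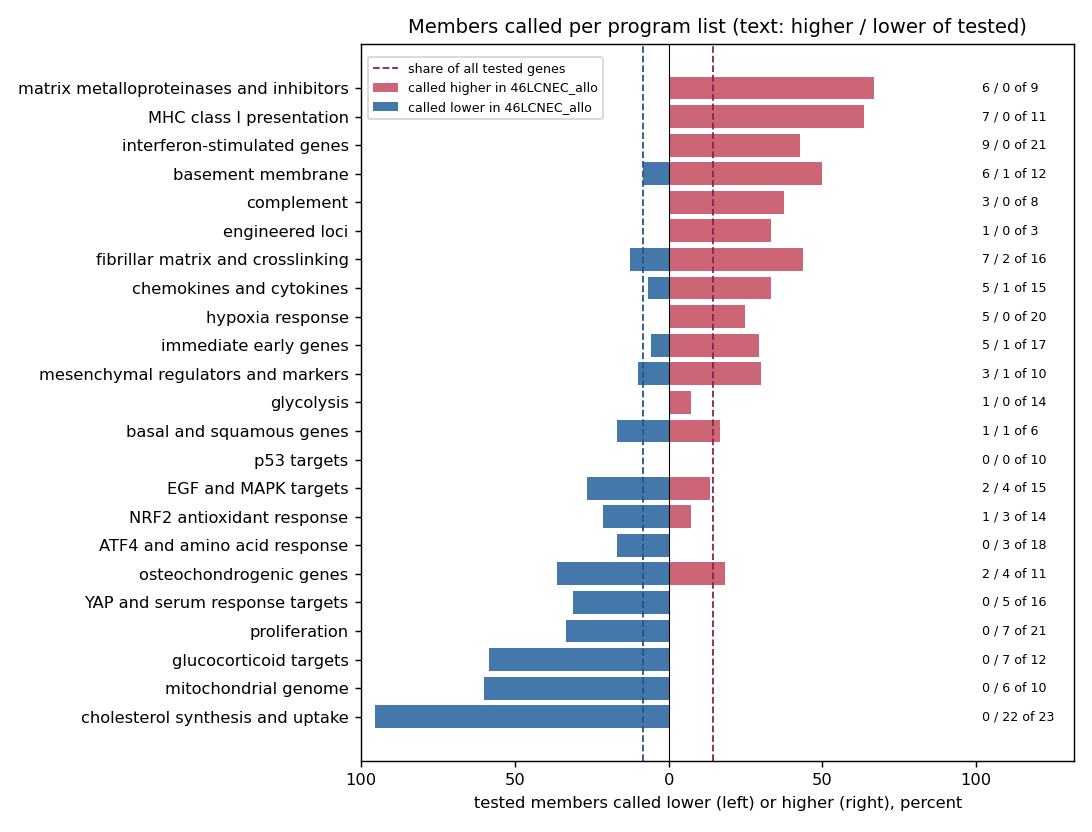
Share of tested members of each program list called lower (left, blue) or higher (right, red) in the tumors, in percent, with the numbers at the right; dashed lines are the shares over all genes tested, 8.45% lower and 14.4% higher. The cholesterol list is at 22 of 23 lower, and the MHC class I list at 7 of 11 higher.

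Transcripts of extracellular matrix genes changed in both directions. Of 12 basement membrane genes, all tested, 6 rose and 1 fell, with a median of 1.44. The chains of type IV collagen rose, Col4a1 (chromosome 8, 11248423 to 11362826) from 80.7, 62.9 and 54.6 in the dishes to 2751, 4888 and 2646 in the tumors (log2 fold change 5.64, standard error 0.27, adjusted p = 1.11e-05) and Col4a2 from 221, 191 and 197 to 7948, 13622 and 8570.2 (log2 fold change 5.58, standard error 0.21, adjusted p = 5.77e-06). Lama4, the laminin chain of vessels, rose from 1023, 859 and 899 to 5501, 7146 and 6349.9 (log2 fold change 2.77, standard error 0.13, adjusted p = 9.9e-06), and Lama5, the laminin chain of epithelium, fell from 6751, 5806 and 5712 to 2241, 3235 and 1795 (log2 fold change -1.37, standard error 0.21, adjusted p = 0.00154, lost without dish A). The laminins Lamb1 (11664, 10164 and 10819 in dishes and 7318, 12869 and 9616 in tumors) and Lamc1 (24084, 21616 and 22288 in dishes and 17041, 24221 and 18764 in tumors) were not called.

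Of 16 genes of fibrillar matrix and its crosslinking, all tested, 7 rose and 2 fell, with a median of 1.01, and without any 1 of the dishes 6 rose and 1 fell. Eln, elastin (chromosome 5, 134731445 to 134776322), went from 0.938, 2.21 and 1.54 in the dishes to 1747, 3277 and 1743 in the tumors (log2 fold change 9.75, standard error 0.34, adjusted p = 5.77e-06). Loxl1, a crosslinking enzyme of elastin, rose from 3933, 3465 and 3470.4 to 15459.6, 19473 and 16107 (log2 fold change 2.23, standard error 0.12, adjusted p = 1.94e-05), while Lox, its relative, fell from 115447, 122588 and 125716 to 21249, 17330.0 and 12872 (log2 fold change -2.85, standard error 0.20, adjusted p = 5.65e-05). Dishes and tumors did not overlap for any of the 3. Thbs1, thrombospondin, fell from 42227, 41743 and 51657 to 16315, 7832 and 4578 (log2 fold change -2.43, standard error 0.41, adjusted p = 0.00248, lost without any 1 of the dishes). Collagen VI chain gene Col6a2 rose from 15140.3, 16677 and 15675 to 50674, 38673 and 48048, and Col5a1 (48508, 50494 and 54636 in dishes and 62919, 45738 and 32162 in tumors) was not called.

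Matrix metalloproteinases rose in 6 of 9 tested members (of 12, inhibitors included), with a median of 3.73. Mmp9, a gelatinase (chromosome 2, 164780439 to 164797771), had 17.8, 14.3 and 20.8 in the dishes and 1291, 3315 and 3839 in the tumors (log2 fold change 7.11, standard error 0.41, adjusted p = 2.2e-05), Mmp12, the macrophage elastase, 2.81, 0 and 2.31 in dishes and 215, 196 and 111 in tumors (log2 fold change 6.17, standard error 0.58, adjusted p = 0.000188), and Mmp3, stromelysin, 240.2, 359.8 and 203 in dishes and 19448, 3825 and 4703 in tumors (log2 fold change 4.76, standard error 0.58, adjusted p = 0.000589). Tumor 312 was highest for Mmp3 and Mmp12 and lowest for Mmp9. Mmp14, which is anchored in the membrane, rose from 14617, 14307 and 14913 to 42709.8, 36979 and 31476 (log2 fold change 1.33, standard error 0.14, adjusted p = 0.00032). Mmp13, a collagenase chosen after its values were seen, had 100.4, 138 and 135 in the dishes and 48612, 1442 and 3003 in the tumors. The inhibitor genes Timp1 and Timp3 are listed at 0 in all samples, and Timp2 (25934, 26266 and 26434 in dishes and 28780.1, 25151 and 37144 in tumors) was not called.

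Bone and cartilage genes changed in both directions. Of 11 tested members (of 13), 4 fell and 2 rose, with a median of -0.29. Beside Sp7, given above, Ibsp, bone sialoprotein, fell from 46.0, 36.4 and 28.4 to 1.32, 1.05 and 0 (adjusted p = 0.000318), and Col2a1 and Alpl were called lower at 1039.6, 962 and 1201 in dishes against 19.9, 278 and 22.1 in tumors and 148, 187 and 201 in dishes against 9.27, 1.05 and 28.8 in tumors. Runx2, the factor upstream of Sp7 in bone, stayed high at 5802, 6502 and 5953 in dishes and 4099, 3374 and 3436 in tumors and did not reach 2-fold (log2 fold change -0.75, adjusted p = 0.00142). Spp1, osteopontin, had 15062, 22655 and 15313 in dishes and 16669, 39437 and 11493 in tumors, with overlap. Mgp, which inhibits calcification, rose from 2575, 4475 and 3008 to 9360.2, 9021 and 9857 (log2 fold change 1.53, standard error 0.20, adjusted p = 0.000732) and Phex from 129, 161 and 168 to 321, 340.0 and 321. Without any 1 of the dishes or without tumor 312 the members that fell numbered 2, and without dish A 1 rose.

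Among chemokine and cytokine genes, Csf1, the macrophage growth factor whose receptor is named above, was lower in the tumors. It had 70387, 69964 and 76091 in the dishes and 16018, 13617 and 13673 in the tumors (log2 fold change -2.32, standard error 0.13, adjusted p = 2.16e-05), without overlap, and was the 1 member of 15 tested (of 19) that fell. Another 5 rose, with a median of 1.69 over the list. Cxcl16 rose from 56.3, 41.9 and 53.05 to 1174, 886 and 2756 (log2 fold change 4.80, standard error 0.40, adjusted p = 0.000111), Il1b, made by myeloid cells, from 5.63, 2.21 and 0 to 376, 204 and 435 (log2 fold change 6.87, standard error 0.69, adjusted p = 0.000244), and Cxcl14 from 408, 539 and 477 to 4089, 2772 and 2879.6 (log2 fold change 2.76, standard error 0.18, adjusted p = 3.95e-05). Those that rose numbered 8 with DESeq2 and 3 without dish C, and 2 fell without tumor 312 or 321. Complement genes rose in 3 of 8 tested members (of 10, median 2.28), among them C4b, which has a near-identical copy, from 0.938, 4.41 and 2.31 to 237, 108 and 299.8, and Serping1 from 1.88, 4.41 and 0 to 747, 44.2 and 462 (lost without dish A or C), with 6 by DESeq2 and 7 without tumor 319.

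Mesenchymal genes, high in the dishes, stayed high in the tumors. Of 10 mesenchymal genes, all tested, 3 rose and 1 fell, with a median of 0.62. Zeb1, a repressor of epithelial genes, rose from 2161, 2205 and 2203 to 7053, 5967 and 6727 (log2 fold change 1.58, standard error 0.098, adjusted p = 2.91e-05), Snai1 from 1929, 1537 and 1672 to 4407, 5427 and 2911 and Twist1 from 2423, 2182 and 2090.4 to 5547, 4317 and 4594. Cdh2, N-cadherin, fell from 2879, 2665 and 2888 to 419.9, 567 and 729 (log2 fold change -2.33, standard error 0.19, adjusted p = 0.00011). The call on Snai1 was lost without any 1 of the dishes or tumor 312, and without tumor 312 Zeb1 was the 1 member called higher. Fn1, fibronectin, had 93873, 84522 and 78464 in dishes and 144382, 237567 and 100215 in tumors and was not called. Of basal and squamous genes, 6 of 12 were tested. Trp63, the master factor of basal cells, rose from 12.2, 2.21 and 4.61 to 523, 73.7 and 87.4 (log2 fold change 4.61, standard error 0.84, adjusted p = 0.00335, lost without dish B or C). By protein staining, the paper reports its subcutaneous tumors as negative for p63, the product of Trp63. Krt16 fell from 32.8, 48.6 and 39.2 to 5.30, 10.53 and 8.85 (lost without any 1 of the dishes), while 2 members fell without tumor 319. Krt14 had 91.9, 87.2 and 135 in dishes and 1075, 72.6 and 50.9 in tumors, so it was high in tumor 312 alone, and the desmosome gene Pkp1 had 4999, 4085 and 4098 in dishes and 673, 8954 and 966 in tumors, high in tumor 319.

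The 3 tumors thus differed among themselves in whole groups of genes. The 10 genes with the largest spread among tumors, of those with a mean of at least 50 normalized counts there, were headed by immunoglobulin genes. Ighg2b had 11.9, 0 and 10977 in tumors 312, 319 and 321, Ighg2c 10.6, 0 and 2805, Ighg1 59.6, 7.37 and 7989, and the light chain segments Igkv1-110 0, 0 and 1220.2 and Igkv8-19 0, 0 and 314. Immunoglobulin segments are alike in sequence and their counts are uncertain. Cxcl13, the chemokine that attracts B cells, had 6.62, 8.42 and 4988, high in the same tumor. Vwde (0, 1.05 and 668), Gpr149 (0, 0 and 416) and Cftr, the chloride channel of epithelium (0, 0 and 375), were also found in tumor 321 nearly alone, and Car3, a carbonic anhydrase of fat and muscle, in the others (575, 142 and 0). In the dishes none of the 10 went above 2.81. None reached 10 normalized counts in 3 of the 6 samples, so none was tested.

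**Figure D4:**
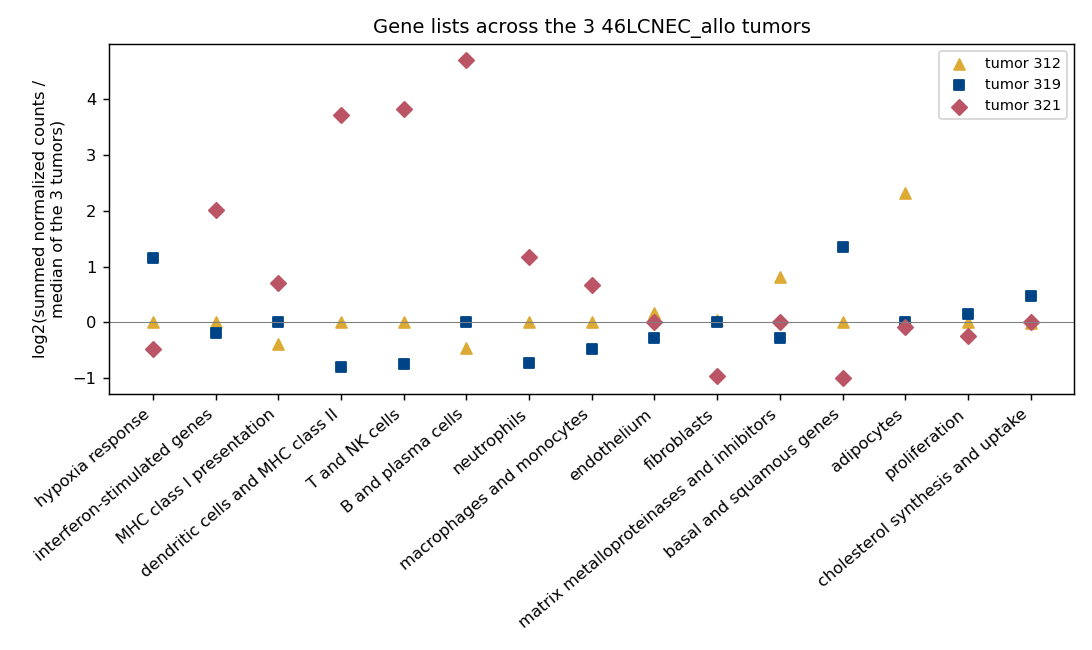
Summed normalized counts of each list in tumors 312, 319 and 321, as log2 of the ratio to the median of the 3 tumors. Tumor 321 lies above the others in the interferon, MHC class II, T cell and B cell lists, tumor 319 in hypoxia (118123 against 52936 and 37911) and tumor 312 in the adipocyte list.

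The same step from culture to skin was read in the 57SCLC line to see where 46LCNEC differed. There, 2451 of 17078 genes were higher in tumors (14.4%) and 391 lower (2.29%). Flask C of 57SCLC_cell stood apart from flasks A and B (chi-square per degree of freedom 144 and 127 against 2.80). The change in 46LCNEC minus the change in 57SCLC was tested over the 12 samples with an interaction term, and 3233 of 18440 genes (17.5%) differed, 1250 (6.78%) with a positive and 1983 (10.8%) with a negative value. Without flask C, 3110 genes differed. The lines also differ in tumor type of origin, adherence, Cre virus and passage number. Their tumors differ in Y-linked RNA, found in every 46LCNEC tumor and in no 57SCLC tumor. The effects of these differences cannot be told apart.

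For genes of YAP, serum response and EGF signaling, the change in 46LCNEC lay below that in 57SCLC for most members. Of 16 YAP and serum response genes tested, 12 had a negative value, with 5 lower in 46LCNEC and 9 higher in 57SCLC. Ccn1 had 6.55, 4.82 and 2.08 in 57SCLC flasks and 2365, 1016 and 1837 in 57SCLC tumors, against a fall from 44372, 32544 and 37651 to 5083, 5730.0 and 3089.8 in 46LCNEC (difference -11.40, standard error 0.51, adjusted p = 2.71e-08). Both sets of tumors therefore ended at 1016 to 5730 normalized counts from very different starts. Of 15 EGF and MAPK genes, 12 had a negative value and 1 a positive one, with 12 of 14 higher in 57SCLC. Ereg had 0.545, 0.603 and 0 in flasks and 28.7, 53.8 and 26.1 in 57SCLC tumors (difference -6.81, standard error 0.40, adjusted p = 1.99e-07).

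Matrix genes, which rose in 57SCLC, also changed by a lower value in 46LCNEC for most members. Of 16 fibrillar matrix genes, 13 had a negative value and 1, Eln, a positive one, and all 16 were higher in 57SCLC tumors than in its flasks. Lox had 4.36, 9.65 and 1.56 in 57SCLC flasks and 3756, 2646 and 4062 in 57SCLC tumors (difference -12.20, standard error 0.55, adjusted p = 2.83e-08). Of 12 basement membrane genes, 7 had a negative value and 3 a positive one, the latter Col4a1, Col4a2 and Col18a1. Of 10 mesenchymal genes, 9 had a negative value. Summed over each of these lists, the dishes of 46LCNEC were far above the flasks of 57SCLC. The fibrillar matrix list summed to 282049 to 309484 in the dishes and 734 to 817 in the flasks. Single members differed, and Eln and Col4a1, given above, were low in the dishes.

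Cholesterol and glucocorticoid genes differed between lines in part. Of 23 cholesterol genes, 10 had a negative value, and in 57SCLC 1 was called lower, with a median of -0.63. Fdps had 112, 118 and 216 in 57SCLC flasks and 86.2, 73.6 and 70.4 in 57SCLC tumors (difference -2.02, standard error 0.44, adjusted p = 0.00386). Of 12 glucocorticoid genes, 6 had a negative value, and Pdk4 rose in 57SCLC from 0.545, 0.603 and 0 to 28.7, 28.3 and 25.0 (adjusted p of the difference = 2.19e-08). In 57SCLC, whose medium is described as the same, 2 of these genes were called higher and 2 lower, with a median of -0.13. Of 14 glycolysis genes, 10 had a negative value, with 8 higher in 57SCLC. Of 14 macrophage markers, 5 had a positive value and 1 a negative one, with all 14 higher in 57SCLC as well. Of 17 endothelial markers, 4 had a positive value and 3 a negative one, with 16 higher in 57SCLC.

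**Figure D5:**
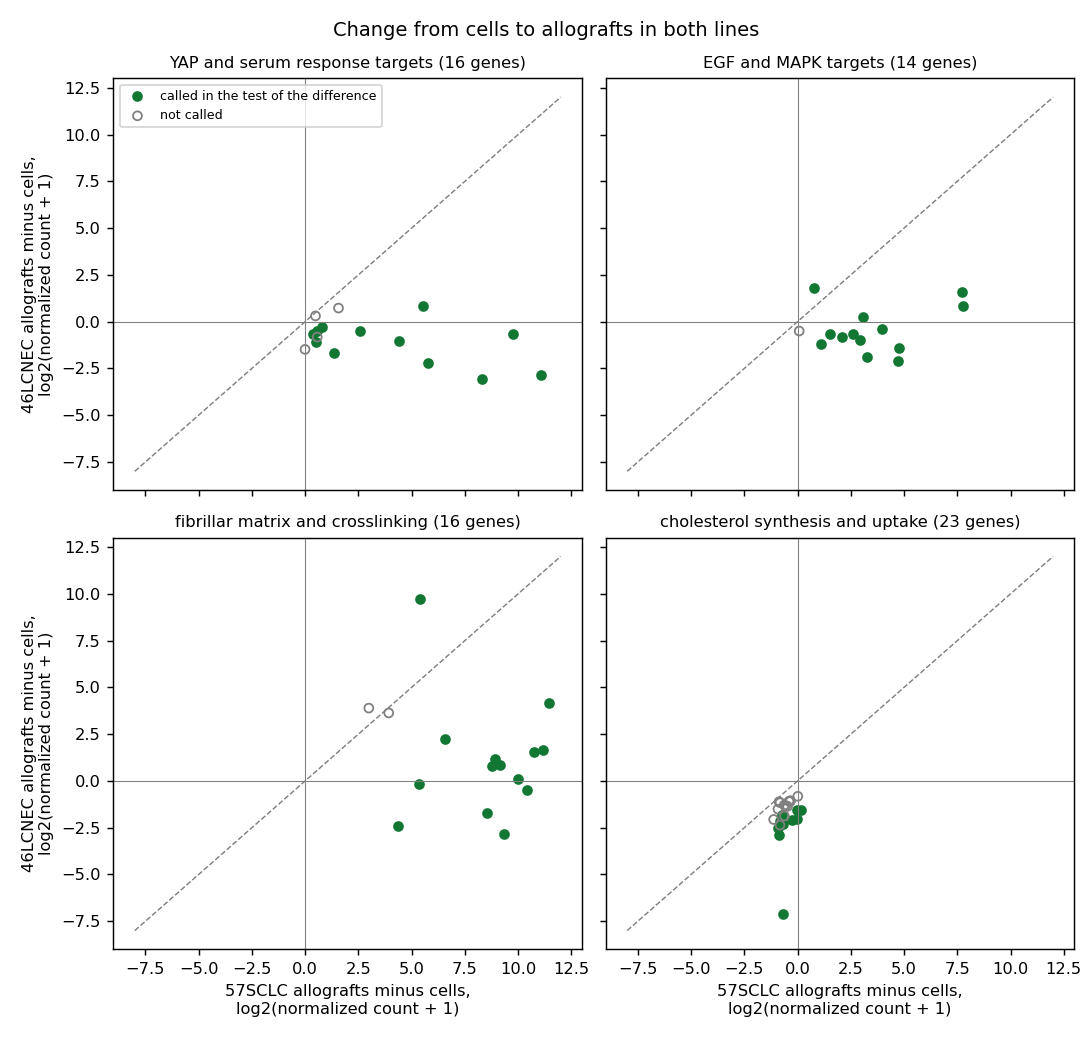
Log2 fold change from cells to allografts in 57SCLC (horizontal) and 46LCNEC (vertical) for the members of 4 lists tested in both lines, with the line of equal change dashed; filled points were called in the test of the difference. Members of the YAP, EGF and matrix lists lie mostly below the line and to the right of 0, and cholesterol genes lie below 0 on the vertical axis.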

How the data were processed

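RNA was extracted from 3 dishes, 3 allografts and the 57SCLC and lung samples set beside them. The authors aligned paired reads to GRCm39 with Rbowtie2 and used featureCounts with a GENCODE annotation for gene counts. The deposited values are a normalized signal: counts divided by the DESeq2 size factor of each sample. Strand and multiple-mapping settings are not given in the sources used here. Dividing each column by its step gave whole reads for 100% of values (tolerance 0.01).

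Groups and replicate names came from the labels. The test was limma 3.58.1 in R 4.3.3, with a mean-variance trend, on log2(value + 1) over genes that reached 10 normalized counts in 3 or more samples, and the difference between lines was an interaction term over 12 samples. Dishes and tumors all come from 1 line, so p-values set a change against the spread between these samples and do not speak for other lines. The same holds for the difference between lines, with 1 line of each type. Folds with 0 reads in 1 group are bounds at a floor of 3 reads over that group. edgeR 4.0.16 and DESeq2 1.42.0 on the recovered reads, other pseudocounts (0.1 and 5), filters, scalings and thresholds, and leaving out each sample were alternatives.

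On simulated data limma recovered 90.9% of genes changed 2-fold and 99% of those changed 4-fold in the comparison of 46LCNEC tumors and dishes (16615 genes), and 42% and 95% in the difference between lines (18014 genes). Recovery there needed the adjusted p alone, without the rule of a 2-fold change. In the 46LCNEC comparison the median estimate for genes changed 2-fold was 0.98 on the log2 scale, so that rule would keep fewer of them. All simulated samples had the same dispersion, whereas the real tumors differed more than the dishes, so recovery at the real spread was not tested. Genes and lists were chosen with earlier results of these data known. Named genes were the 12 largest called changes in each direction with at least 50 normalized counts throughout the higher group, up to 4 members of each list with the smallest adjusted p, members called in the rarer direction, the engineered, sex-linked, neuroendocrine and epithelial genes, the 6 largest differences between lines in each direction, and the 10 genes of largest spread among tumors. Members named beyond these, mostly as not called or to follow a pathway, were chosen after their values were seen. Results on some genes are not reported here.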

Additional observations from a re-analysis of the deposited data

Results flagged for a closer look

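The change from cells to allografts differed between 46LCNEC and 57SCLC, by the interaction test in limma, for 3233 genes. The values below are the change in 46LCNEC minus that in 57SCLC on the log2 scale, for the 6 largest in each direction. Where a group has few or 0 reads, the value depends on the pseudocount and is no measure of size.

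Robo2, an axon guidance receptor (chromosome 16, 73688727 to 75244270), had a difference of 13.43. It had 2.81, 5.52 and 1.54 normalized counts in 46LCNEC dishes and 948, 229 and 847 in 46LCNEC tumors, but 728, 756 and 1622 in 57SCLC flasks and 45.5, 8.49 and 3.40 in 57SCLC tumors, so the lines went opposite ways. St8sia4, a polysialyltransferase, had a difference of 10.07, with 0.938, 0 and 0 in dishes and 511, 435 and 508 in tumors of 46LCNEC and 1799.6, 1638 and 1393 and 567, 558 and 606 in those of 57SCLC. Prkcb, a protein kinase C, had a difference of 9.34, with 2.81, 3.31 and 0 in dishes and 1339, 839.9 and 2242 in tumors in 46LCNEC and 1056, 1004 and 1385 and 809, 869 and 1177 in 57SCLC. All 3 were thus present in 57SCLC cultures and at or near 0 in the dishes of 46LCNEC. AI593442 (9.45) and Smim43 (8.44) rose in 46LCNEC, to 940.4, 2476 and 136 and to 621, 298 and 949. Ddx3y (8.58) was at 0 in every 57SCLC sample.

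Cyp1b1 had the most negative difference, -16.14. It had 55469, 51318 and 51702 in 46LCNEC dishes and 358, 16.8 and 369 in 46LCNEC tumors, and 3.27, 3.02 and 1.04 in 57SCLC flasks and 852, 386 and 635 in 57SCLC tumors, so the tumors of both lines were closer to each other than the cultures were. Ccn2 (-13.96) and Lox (-12.20) had the same form, Ccn2 with 0 in each in 57SCLC flasks and 1958, 2119 and 2445 in 57SCLC tumors. Cdh6 had a difference of -13.94, with 0, 0 and 0.521 in flasks and 9.58, 15.6 and 10.2 in 57SCLC tumors. Spp1, osteopontin, had -12.17, since it was high in both settings of 46LCNEC and went from 0, 0.603 and 0.521 to 6435, 5191 and 10312 in 57SCLC. The predicted gene Gm6093, which has near-identical copies, had -13.73.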

How the results depend on the processing

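By a test against 2-fold, 1099 genes were higher and 315 lower in 46LCNEC, 1618 higher and 82 lower in 57SCLC, and 1293 differed between the lines. Leaving out each sample in turn gave 1659 to 2585 higher and 769 to 1595 lower genes in 46LCNEC, 2118 to 2641 and 285 to 374 in 57SCLC, and 2608 to 3655 for the difference. An adjusted p of at most 0.05, edgeR, DESeq2, other pseudocounts, scalings, filters and the model of all 15 samples kept the 46LCNEC counts within 1.5 times. The share of called genes that were higher was 63%, 57.1% to 65.6% over tools and scalings, and 77.7% by the test against 2-fold. Of the genes taken by the naming rule, uncalled neuroendocrine and epithelial markers and the genes of largest spread were not recomputed under the alternatives. Of the genes that were recomputed, 0 reversed direction. Calls were lost in 118 of their values in 46LCNEC and in 2 for the difference, both for Ddx3y (edgeR 11.74, all 15 samples 8.58). The letters of the dishes and flasks mark no shared culture, and the deviations of same-lettered samples correlated at 0.0916, -0.0837 and -0.00619. With the letters as a replicate block, 2751 genes differed between lines. Depth limits low genes: 356 of the genes called higher had at most 3 reads in each dish, and 101 of those called lower had at most 3 reads in each tumor.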
